A study of Mus musculus with 2 samples.

Results

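The transcription factors that set and keep macrophage identity were followed by RNA sequencing across the response of mouse peritoneal macrophages to interleukin-4 (IL-4). The 9 genes were taken by name, in a list made with earlier results of these data known. They were Spi1, Cebpa, Cebpb, Cebpd, Maf, Mef2c, Gata6, Runx1 and Bhlhe40, of 15623 genes listed in 1 or both libraries. All 9 were listed in both. The cells came from wild-type C57BL/6 mice aged 6 to 8 weeks per the study's methods, were drawn into the peritoneal cavity with 4% thioglycolate 4 to 5 days before lavage, and were enriched by adherence for 4 h and starved in medium with 0.5% serum. IL-4, a product of Th2 cells that turns macrophages toward the alternative (M2) state, was then given for 6 h to the cells of 1 group, and those of the other were nontreated (NT). Each group held 1 library, so no value was checked against a spread between replicates. The labels name peritoneal macrophages as the source and bone marrow as the tissue, and how many mice went into a library is not given in the sources used here.

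Macrophage identity is held by a small set of DNA-binding proteins that act together. PU.1, the product of Spi1, belongs to the ETS family and opens macrophage enhancers together with factors of the C/EBP family, which carry a basic leucine zipper. On this shared base, other factors add a state or a tissue. Gata6 is the factor of resident large peritoneal macrophages, Maf encodes c-Maf, an activator of the cytokine gene Il10, and Bhlhe40 encodes a repressor that binds E-boxes.

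The data show an unequal response. In the IL-4 library, Bhlhe40 was 2.12-fold higher, Cebpb was 1.73-fold higher and Maf was 2.11-fold lower than in the NT library, while the Spi1 values were almost the same. Cebpa, Cebpd and Runx1 were higher by smaller amounts, Mef2c was lower, and Gata6 had few reads. Calls used the limits that the study set for this comparison, a log2 ratio (IL-4 over NT) of 0.75 or more in size, a p-value of 0.05 or less from an exact two-sided binomial test on the reads of the gene, and a Benjamini-Hochberg (BH) adjusted value of 0.5 or less. This test compares the reads of these libraries, not the conditions. By this rule 2 of the 9 factors were called higher, where 4.07% of 15593 tested genes were, and 1 was called lower, where 6.28% of tested genes were. Among the 9925 genes with at least 50 counts in the library with more, which include all 9 factors, 4.32% were called higher and 6.83% were called lower. The median log2 ratio of the 9 factors was 0.37, beside -0.028 over all tested genes.

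Promoter sequences were looked up because several of the factors differed between the libraries in their own transcript level. RefSeq promoters (GRCm38.p6, from 250 bases before to 50 bases after a start site) were found for 4 of the 9 genes, namely Cebpa, Cebpb, Mef2c and Runx1, in 7 windows. Each window was searched on both strands for TTC and GAA separated by 4 bases, the spacing preferred by Stat6, and for the same arms separated by 3 bases, the spacing preferred by other STAT proteins. The PU.1 core GAGGAAGT, the C/EBP palindrome TTGCGCAA and the E-box CACGTG were searched as well. Matches are in capitals, and 3 windows are shown, those of the called gene Cebpb and of the other genes that held a match, 5′ to 3′ on the strand of the gene.

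Cebpb, chr2:167688665-167688964, plus strand: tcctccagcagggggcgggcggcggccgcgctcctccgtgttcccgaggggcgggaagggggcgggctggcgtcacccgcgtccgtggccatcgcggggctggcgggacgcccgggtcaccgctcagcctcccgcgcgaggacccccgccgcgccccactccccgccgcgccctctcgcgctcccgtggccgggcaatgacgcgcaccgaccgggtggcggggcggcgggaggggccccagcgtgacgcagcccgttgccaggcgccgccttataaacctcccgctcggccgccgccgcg
Mef2c, chr13:83503784-83504083, plus strand: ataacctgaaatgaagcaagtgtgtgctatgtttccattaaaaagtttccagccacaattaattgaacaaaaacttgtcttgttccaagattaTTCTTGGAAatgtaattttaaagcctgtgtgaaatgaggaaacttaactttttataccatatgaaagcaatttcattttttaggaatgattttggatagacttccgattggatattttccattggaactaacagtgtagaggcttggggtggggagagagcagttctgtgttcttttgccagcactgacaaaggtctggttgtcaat
Runx1, chr16:92826025-92826324, minus strand: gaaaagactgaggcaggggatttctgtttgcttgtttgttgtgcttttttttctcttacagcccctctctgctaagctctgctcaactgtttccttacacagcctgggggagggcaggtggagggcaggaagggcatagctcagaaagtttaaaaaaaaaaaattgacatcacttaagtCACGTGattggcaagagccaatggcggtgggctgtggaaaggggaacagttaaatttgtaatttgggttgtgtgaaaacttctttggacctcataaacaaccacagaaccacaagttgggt

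The Cebpb window held none of the 5 motifs, and its GC content was 80.7%, beside a median of 52.7% over 32851 promoter windows. The Mef2c window, which is 1 of 3 for this gene, held TTCTTGGAA, arms with the spacing of 3 bases, at position -157 from the start site, and 8.3% of all windows held that motif. The Runx1 window, the more upstream of 2, held an E-box at position -71 from the start site, and 7.15% of all windows held one. No window of the 4 genes held the Stat6 spacing, the PU.1 core or the C/EBP palindrome, which 6.95%, 3.2% and 0.183% of all windows held. These matches describe letters and not sites of binding.

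Levels of the factors were compared per length, as FPKM, which scales fragments for transcript length and library size. In the NT library the order from high to low was Spi1, Cebpa, Bhlhe40, Cebpb, Maf, Runx1, Cebpd, Mef2c and Gata6, and the level ran from 230 FPKM for Spi1 to 1.52 FPKM for Gata6. Cebpa and Bhlhe40, and Runx1 and Cebpd, were neighbors whose 95% counting intervals overlapped. In the IL-4 library Bhlhe40 moved above Cebpa to the second place. Maf, Runx1 and Cebpd then lay close together, at 9.96, 9.03 and 7.73 FPKM, and the intervals of neighbors among them overlapped. Gata6 and Mef2c, at 2.13 and 1.72 FPKM, could not be ordered either. Intervals here are exact and cover counting error only, since PCR copies were not told apart by molecular identifiers.

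**Figure D1:**
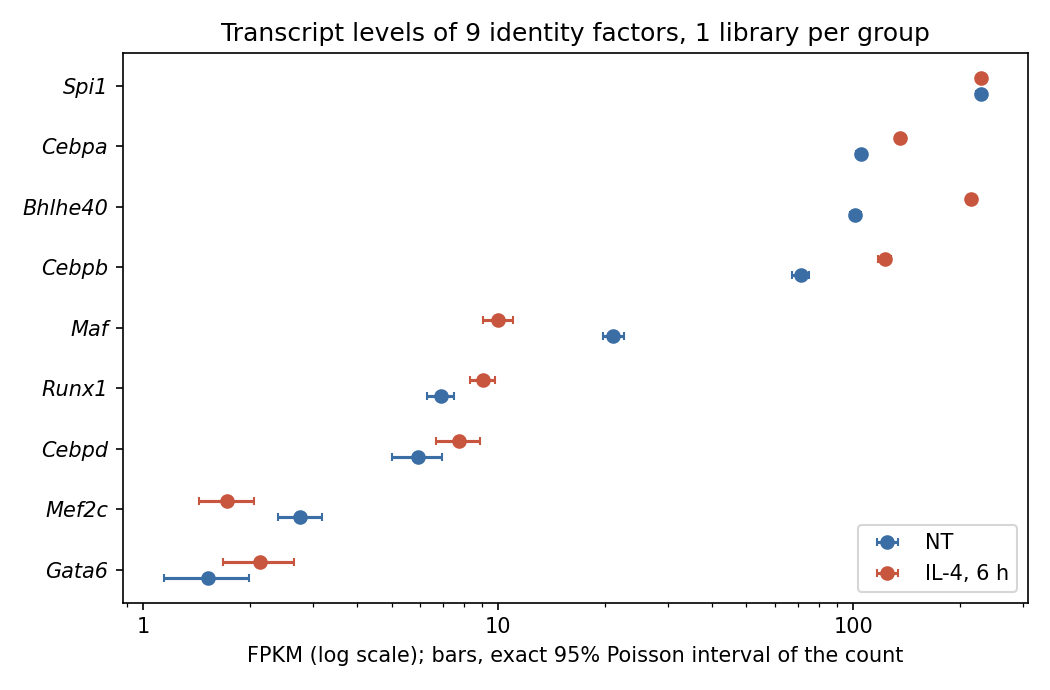
FPKM (log scale) of the 9 factors in the NT library (blue) and the IL-4 library (red), with exact 95% Poisson intervals of the count behind each value. Bhlhe40 and Cebpb lie to the right in the IL-4 library and Maf to the left, while the Spi1 points, at 230 FPKM each, coincide.

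Spi1 (gene 20375, chromosome 2, 91082374 to 91115759, GRCm38) was the most abundant of the factors. It had 3705 expected counts, the number of its reads as estimated by RSEM, in NT cells and 3783 after IL-4. The level was 230 FPKM in both, above that of 98.1% of the genes listed for NT cells. The log2 ratio, 0.0023, had a 95% interval from -0.063 to 0.068, so a change of the size used for calls lay outside the counting interval. The sign of this ratio was not fixed: it was -0.017 when the total was taken without the 100 most abundant genes, and -0.14 less the median ratio of genes of like length.

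Runx1, which acts upstream of Spi1 in blood cell development, lies on chromosome 16 from 92601466 to 92826074. It had 487 expected counts in NT cells and 631 after IL-4, or 6.88 and 9.03 FPKM. The log2 ratio was 0.35 (interval, 0.17 to 0.52), and Runx1 was not called. Its transcripts are long, and long transcripts tended to lower values after IL-4. The tenth of genes with the longest transcripts, among 8463 genes with at least 200 reads, had a median log2 ratio of -0.44, beside 0.18 for the tenth with the shortest. Less the median of the 500 genes nearest in length, the Runx1 ratio was 0.65, still short of the threshold. Its interval, from 0.48 to 0.83, included the threshold. The other RUNX genes were far less abundant, at 1.13 FPKM in both libraries for Runx2, and at 1.75 and 1.21 FPKM in the NT and IL-4 libraries for Runx3. Cbfb, which encodes the shared partner of RUNX proteins, had 32.79 and 37.55 FPKM and was not called.

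Cebpa, Cebpb and Cebpd all had higher values in the IL-4 library, but not equally. Cebpb (gene 12608, chromosome 2, 167688915 to 167690432), whose product is needed for full Arg1 expression in macrophages, had 1183 expected counts in NT cells and 2084 after IL-4. Its level rose from 71.1 to 123 FPKM. Its log2 ratio of 0.79 had an interval from 0.69 to 0.89 that included the threshold, and it was 0.66 less the length trend, which ended the call. Of the 8463 genes with at least 200 reads, 3.23% had a higher ratio than Cebpb. On the opposite strand, 312 of the 1504 annotated exon bases of Cebpb are shared with Tmem189, for which 4669 counts were listed before and 2694 after IL-4. Whether the libraries kept strand is not given in the sources used here, so reads from the shared bases cannot be told apart.

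Cebpa (gene 12606, chromosome 7, 35119293 to 35121928), the factor of granulocyte and monocyte progenitors that stays on in macrophages, had 3072 counts in NT cells and 4044 after IL-4. The level was 105 and 136 FPKM. The log2 ratio of Cebpa was 0.37, with an interval from 0.30 to 0.44 that lay above 0 and below the threshold, and Cebpa was not called.

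Cebpd (gene 12609, chromosome 16, 15887286 to 15889545), an amplifier of inflammatory gene expression, was the least abundant C/EBP factor, with 148 and 197 counts, or 5.92 and 7.73 FPKM. The log2 ratio of Cebpd was 0.38, and the interval from 0.070 to 0.70 was wide at this depth. Spidr, on the opposite strand, had 228 and 248 counts and shares 562 of the 3746 exon bases that GENCODE gives Cebpd over all its transcripts. The quantified Cebpd length was 2260 bases, and the shared part of it was not examined.

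Put side by side, Cebpb exceeded Cebpa in log2 ratio by 0.42, with an interval of the difference from 0.30 to 0.54. Such differences were computed for 8 pairs of related genes, which were picked after the values had been seen, so they are descriptions with an exact 95% counting interval and no test. The Cebpb to Cebpa ratio of FPKM was 0.676 in NT cells and 0.904 in IL-4 cells. Cebpb also exceeded Cebpd, by 0.40 with an interval from 0.069 to 0.74, whereas the Cebpa and Cebpd ratios differed by -0.016 with an interval from -0.34 to 0.31. The FPKM of the 3 genes summed to 182 in NT cells and 266 in IL-4 cells. Other genes named for the C/EBP family or related to it were measured too. Of 4 listed, 1 was called higher and 0 lower, beside 4.07% and 6.28% of tested genes. The called gene was Ddit3, a C/EBP relative induced by cell stress that dimerizes with C/EBP proteins. Ddit3 had 436 and 984 counts, and its log2 ratio was 1.15. Cebpg had 16.97 and 20.89 FPKM and was not called, nor were Cebpz, at 459 and 438 counts, and Cebpe, at 1 and 0.

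**Figure D2:**
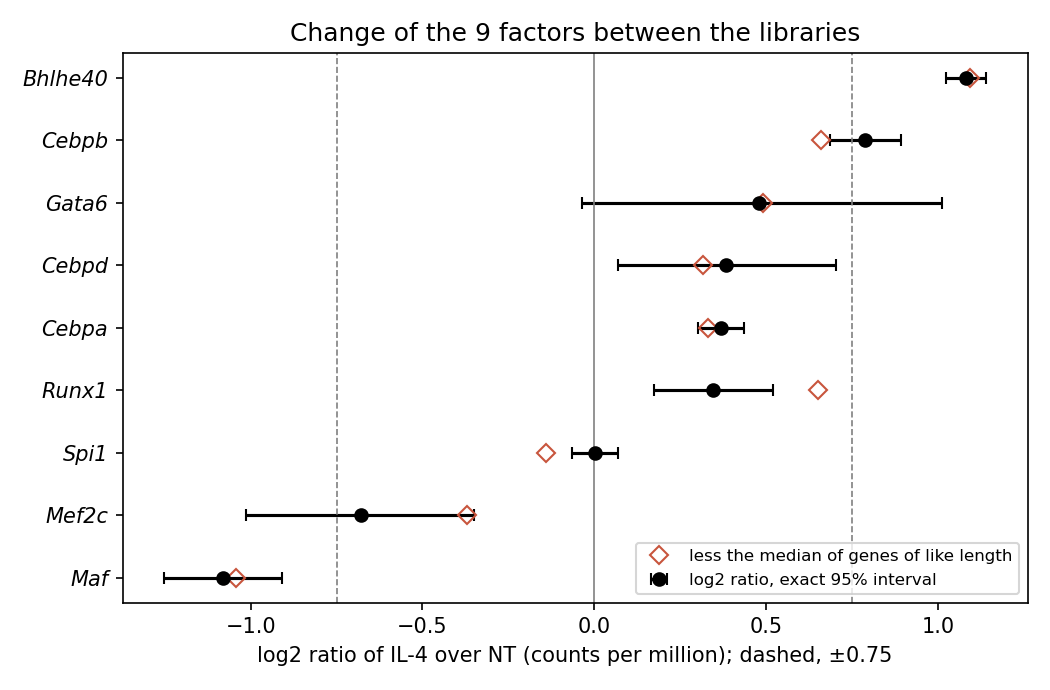
Log2 ratio of IL-4 over NT for each factor (black) with its exact 95% interval, and the same ratio after subtraction of the median of genes of like length (open red diamonds), with the threshold of 0.75 in either direction dashed. Bhlhe40 and Maf lie beyond the threshold on both measures, Cebpb on the first alone, and the Gata6 interval spans 0.

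Maf (gene 17132, chromosome 8, 115703253 to 115706894) fell the most of the factors. It had 854 expected counts in NT cells and 412 after IL-4, or 21.1 and 9.96 FPKM. The log2 ratio of Maf was -1.08, the interval from -1.25 to -0.91 lay wholly past the threshold, and it was -1.04 less the length trend. Of the genes with at least 200 reads, 2.08% had a lower ratio. These counts were not whole numbers, so some of the reads were divided with other transcripts.

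Of 5 other MAF genes examined, 2 were called higher and 0 lower, beside 4.07% and 6.28% of tested genes. Of the 5, 3 had at least 50 counts in a library. The median log2 ratio over those 3 was -0.089, and over all 5 it was 0.80, the value of Nrl, which had only 2.2 and 4.3 counts and an interval from -1.83 to 4.44. Maff, a small MAF without an activation domain, rose from 59 to 131 counts, or from 2.7 to 6 FPKM, and its log2 ratio of 1.12 had an interval from 0.67 to 1.59. Mafa had only 2 and 16 counts and falls under the minimum of 20 counts set for naming a gene from a list, so it is named after its values were seen. The small MAF genes Mafg, with 16.02 and 15.03 FPKM, and Mafk, with 15.25 and 14.33 FPKM, were not called, and their intervals, from -0.33 to 0.15 and from -0.28 to 0.098, included 0.

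Bhlhe40 (gene 20893, chromosome 6, 108660629 to 108666925) rose the most. It had 3506 expected counts in NT cells and 7573 after IL-4, and its level went from 101 to 215 FPKM. The log2 ratio of Bhlhe40 was 1.08 (interval, 1.03 to 1.14), and it was 1.09 less the length trend. Only 2.12% of the genes with at least 200 reads had a higher ratio. The antisense gene 0610040F04Rik shares 118 of the 4705 exon bases that GENCODE gives Bhlhe40 over all its transcripts, where the quantified length was 3113 bases. It had 93.7 and 192 counts, few beside those of Bhlhe40.

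Bhlhe41, the closest relative of Bhlhe40 and likewise a repressor at E-boxes, was lower in the IL-4 library. Its expected counts were 3264 and 1994, or 48.5 and 29.1 FPKM, and its log2 ratio of -0.74 (interval from -0.82 to -0.66) ended just short of the threshold. The ratios of Bhlhe40 and Bhlhe41 differed by 1.82 (interval from 1.72 to 1.92), and by 1.54 less the length trend. Bhlhe40 was 2.09 times as abundant as Bhlhe41 by FPKM in NT cells and 7.37 times in IL-4 cells. The summed FPKM of the pair was higher in the IL-4 library, at 244 against 150 in NT cells.

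**Figure D3:**
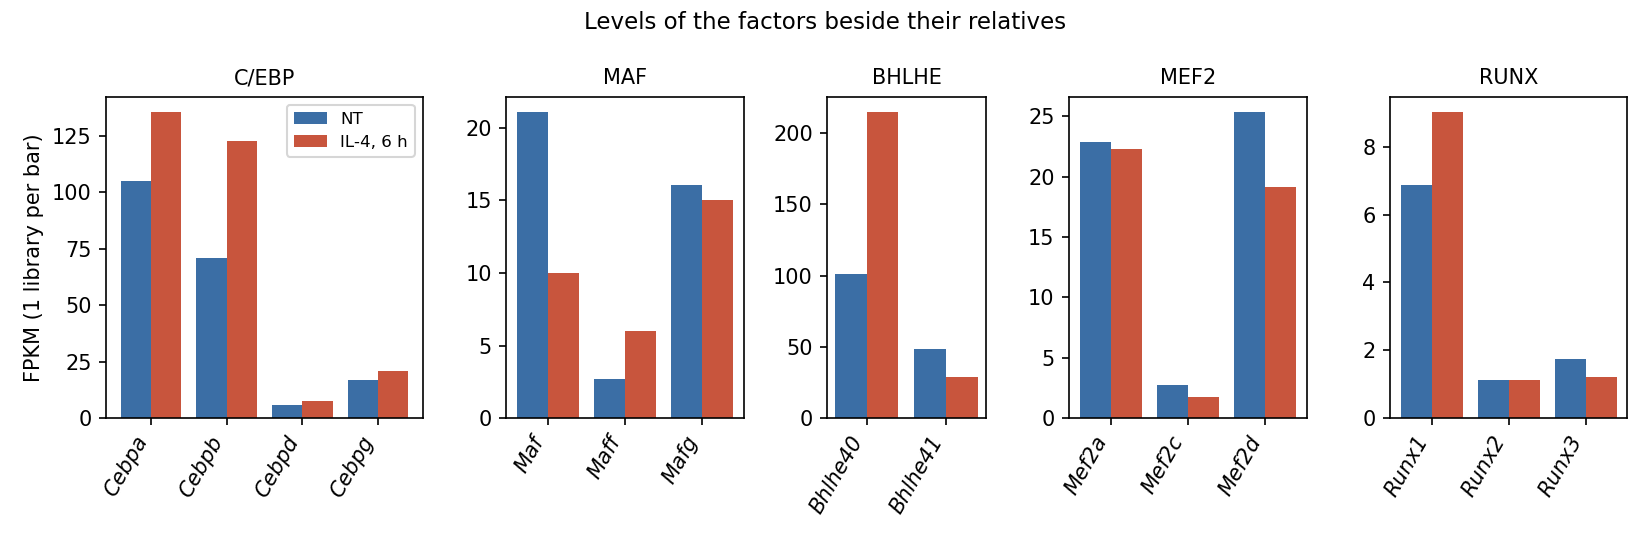
FPKM of the C/EBP, MAF, BHLHE, MEF2 and RUNX factors and some of their relatives in the NT (blue) and IL-4 (red) libraries. There is 1 library per bar, on separate linear axes that start at 0. Spi1, Gata6 and other measured relatives, among them the called gene Ddit3, are not drawn. Bhlhe40 and Bhlhe41, at 101 and 48.5 FPKM in NT cells, part to 215 and 29.1 FPKM in IL-4 cells, and Maf goes from 21.1 to 9.96 FPKM while Mafg goes from 16.02 to 15.03 FPKM.

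Mef2c (gene 17260, chromosome 13, 83504017 to 83667079), a MADS-box factor of muscle and of lymphoid and myeloid cells, had 198 counts in NT cells and 126 after IL-4. The level was 2.77 and 1.72 FPKM. The log2 ratio was -0.68 (interval, -1.01 to -0.35), and Mef2c was not called at the main threshold but was called at a fold of over 1.5 and a BH limit of 0.05. It has the longest transcripts of the factors, at 6403 bases in the NT library, and its ratio was -0.37 (interval from -0.71 to -0.042) less the length trend. Mef2a and Mef2d were more abundant, at 22.9 and 25.4 FPKM in NT cells. Mef2c minus Mef2a was -0.64 on the log2 scale (interval of the difference from -0.995 to -0.296). Against Mef2d, the difference of -0.27 had an interval from -0.63 to 0.074.

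Gata6 (gene 14465) had the lowest level in the NT library, with 54 counts in NT cells and 77 after IL-4, or 1.52 and 2.13 FPKM. The log2 ratio was 0.48, and its interval from -0.036 to 1.01 included both 0 and the threshold, so neither a change nor its absence could be shown at this depth. In NT cells the level was above that of 33.1% of listed genes. Other GATA genes were at most 1.2 FPKM in either library, and Gata1 was not listed.

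To place Gata6, 14 genes of resident large peritoneal macrophages were examined, all of which were listed. Of these, 4 were called higher, beside 4.07% of all tested genes, 0 were called lower, beside 6.28%, and 10 were not called. The median log2 ratio was 0.50. Only 5 of the genes had at least 50 counts in a library, and Selp and Rarb had them in the IL-4 library alone. F10, which encodes coagulation factor X, rose from 2179 to 7255 counts (1.71 on the log2 scale). Selp (P-selectin) rose from 25 to 72 counts, Rarb (a retinoic acid receptor) from 44 to 102 and Alox15, a lipoxygenase known to respond to IL-4, from 4 to 29. Prg4 and F5, which also had at least 50 counts, were not called. Prg4 had 255 and 253 counts (-0.039 on the log2 scale), and F5 had 129 and 97 (-0.44). The defining surface marker Timd4 had 12 and 10 counts, and Vsig4 had 45 and 29. In bulk samples, fewer cells of a type and less RNA per cell cannot be told apart, and the part of such cells in the Gata6 value was not tested.

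Markers of the cells were checked beside the factors. All 10 macrophage markers were listed, and their summed level was 17911 CPM (counts scaled to a common total) in NT cells and 18068 CPM after IL-4. Most of this sum came from Lyz2 (129463 and 126458 counts) and Cd68 (44626 and 48679), so it says little of the others. Aif1 had only 19 and 11 counts. Of the 10, 1 was called higher (Csf1r) and 1 lower (Cd14), beside 4.07% and 6.28% of tested genes. Their log2 ratios ran from -1.07 to 0.90. Of 43 markers of 8 other cell types, 33 were listed. Of these, 0 were called higher and 2 were called lower, beside 4.07% and 6.28% of tested genes. Those called lower were Siglecf, an eosinophil marker that some tissue macrophages also carry, with 53 and 27 counts, and the mesothelial marker Msln, with 12 and 2. The summed level was between 0.821 and 9.61 CPM for each of 7 lists of immune cells in NT cells, and between 0.357 and 8.62 CPM after IL-4. Mesothelial and fibroblast markers summed to 159 and 132 CPM, mostly through Col1a1 (10.89 and 8.46 FPKM) and Col1a2 (10.47 and 9.71 FPKM). Ly6g, S100a9, Mpo, Ccr3 and Epx, which define neutrophils or eosinophils, were not listed in either library, which allows up to 3 counts each, or 0.272 CPM in NT cells and 0.267 CPM after IL-4. From the same neutrophil list, S100a8 was listed, with 35 and 21 counts (8.76 and 5.15 FPKM, not called), and Elane had 1 and 0 counts. The part of these cells in the factors' values was not tested.

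**Figure D4:**
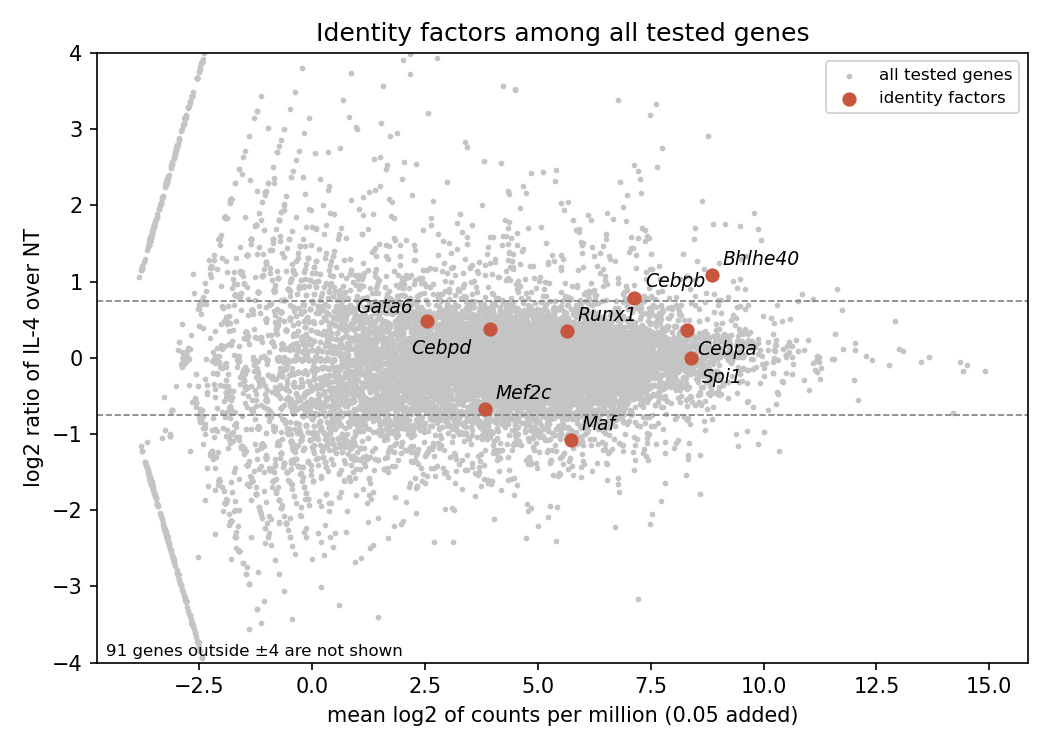
Log2 ratio of IL-4 over NT against mean log2 CPM (0.05 added) for all tested genes (grey) and the 9 factors (red), with the threshold dashed and 91 genes beyond 4 in size left off. Bhlhe40 and Maf lie at the edges of the genes of like abundance, and Spi1 and Cebpa lie within those of theirs.

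Finally, genes known to depend on PU.1 and C/EBP factors were described as a list of 20, all listed in both libraries. Of these, 3 were called higher and 2 lower, beside 4.07% and 6.28% of all tested genes, and 15 were not called. The median log2 ratio was 0.075. Fcgr2b, the inhibitory Fc receptor, rose from 1752 to 13485 counts (2.92 on the log2 scale). Csf1r, the receptor of the macrophage growth factor M-CSF, rose from 6236 to 11896 counts (0.90), and Csf3r, the G-CSF receptor, from 1758 to 3291 (0.88). Cd14, a coreceptor for lipopolysaccharide, fell from 1219 to 591 counts (-1.07 on the log2 scale), and Cybb, a subunit of the NADPH oxidase, from 12284 to 6462 (-0.95). Lyz2 had 11289 and 10811 FPKM, a log2 ratio of -0.062. Members of the list thus went in both directions. Spi1 had 230 FPKM in both libraries. Among the C/EBP factors, Cebpa had 105 and 136 FPKM, Cebpb 71.1 and 123, and Cebpd 5.92 and 7.73. The part of any of these factors in the values of the list was not tested. A list of 16 genes held ETS relatives of Spi1 and, from another family, IKAROS genes. Of these 16, 1 was called higher and 0 lower, beside 4.07% and 6.28% of tested genes. The median log2 ratio was -0.062. The called gene was Ikzf2, an IKAROS gene with 9 and 22.84 counts, so no ETS relative was called. The most abundant ETS relative in NT cells, Elf1, had 22.14 and 20.72 FPKM.

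**Figure D5:**
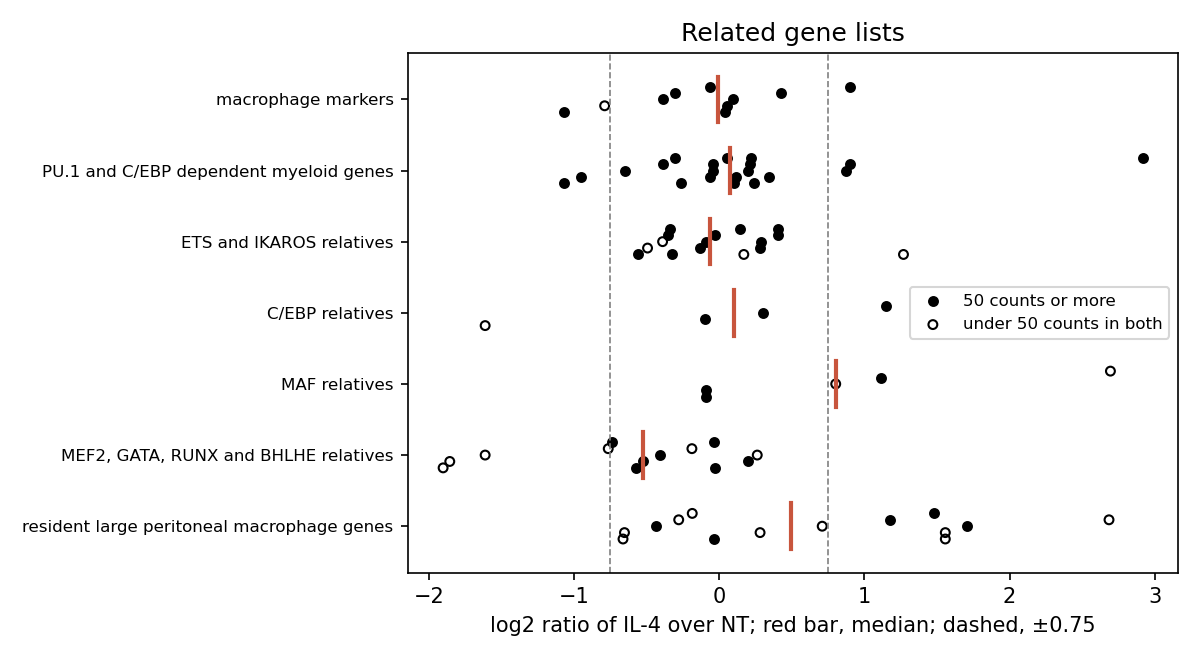
Log2 ratio of IL-4 over NT for each listed gene of 7 related lists, filled where the gene had at least 50 counts in a library and open where it did not, with list medians as red bars and the threshold dashed. The median of the MAF relatives, 0.80, is that of a gene with few counts (-0.089 over their filled points), and the genes dependent on PU.1 and C/EBP factors spread from -1.07 to 2.92 around 0.075.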

How the data were processed

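Groups were taken from the sample titles. Per the labels and the study's methods, total RNA was purified on columns, and the reads, from an Illumina HiSeq run by BGI, were aligned to GRCm38/mm10 by Bowtie with RSEM for quantification (versions not given in the sources used here). The deposited tables hold, for each gene, the expected count from RSEM, with no scaling for depth, and FPKM, which the authors scaled for transcript length and library size. A gene absent from a table was set to 0. Gene numbers were paired with symbols through a RefSeq table of GRCm38.p6 (15587 of 15623 matched), which also gave coordinates. Exon overlap was read from GENCODE M21 over all annotated transcripts of a gene, so exon bases can exceed the quantified length.

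The totals were 11035641 expected counts (NT) and 11250099 (IL-4), and the floor was 3 counts. Ratios are log2 ratios of CPM with 0.5 count added. Counts were rounded for an exact binomial test against the IL-4 share of all counts, with the smaller tail doubled, over 15593 genes (30 rounded to 0 in both libraries), with BH adjustment over all of them. Intervals are Clopper-Pearson 95% intervals for ratios and Poisson intervals for levels. The procedure was run on data simulated with counting error only, which cannot show how calls would hold between replicates. With 1 library per group, edgeR 4.0.16 served only with an assumed coefficient of variation, and DESeq2 1.42.0 only for scaling. Python 3.11.15, scipy 1.17.1 and R 4.3.3 were used. 1 gene is not reported here. The factors, lists, tests and thresholds were chosen with earlier results of these data known. From each list, called genes with at least 20 counts (up to 4), abundant relatives and the markers with the highest levels are named. Others were chosen after values were seen, namely undetected markers, weak or uncalled genes and the relatives that were paired with a factor.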

Additional observations from a re-analysis of the deposited data

How the results depend on the processing

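No paired analysis was possible because only 1 library was made for each group. Main values were 2 factors called higher, 1 called lower, a median log2 ratio of 0.37, and 635 genes higher and 979 lower. With the length trend subtracted, 1 factor was called higher (Cebpb lost its call at 0.66) and the Spi1 ratio was -0.14. With the total taken without the 100 most abundant genes, the Spi1 ratio was -0.017. With limits of 1 on the log2 ratio and 0.05 on the BH-adjusted value, 1 factor was higher (Cebpb, at 0.79, was not called), with 408 genes higher and 476 lower. At a fold over 1.5 with the same BH limit, 2 factors were lower, since Mef2c, at -0.68, was called. In the edgeR exact test with an assumed coefficient of variation of 0.2, 1 factor was higher, without Cebpb at 0.79, and 390 genes were higher and 423 lower. With 0.4, 0 factors were called in either direction, with Bhlhe40 at 1.08, Cebpb at 0.79 and Maf at -1.08, and 65 genes were higher and 8 lower. Bhlhe40 and Maf thus kept their calls at 0.2 and lost them at 0.4. The variation between replicates could not be estimated from these libraries, so neither value can be preferred. FPKM with 1 added gave 391 genes higher and 399 lower. In the other 131 comparisons with an alternative, direction and side of the threshold were kept, or the value stayed within its limits. TMM and median-of-ratios scaling raised each ratio by 0.037 and 0.028. The depth limits Gata6, Cebpd and Mef2c, whose intervals are the widest. Every alternative was run.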

Other observations

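The length that the authors' tables give a gene is weighted over its transcripts, so it shifts where the mix of isoforms shifts. Of the 9 factors, Runx1 and Mef2c had a length that differed between the libraries. That of Runx1 was 6332 bases in NT cells and 6135 bases after IL-4, and that of Mef2c was 6403 and 6411 bases. Both genes have several start sites in RefSeq, and the mix of their isoforms was not tested.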
